A study of Mus musculus with 22 samples.

Results

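Eosinophils at the last sorted step of their maturation in bone marrow were compared with cells of the stage before, in mice that kept their IL-5. The members of the 2 groups were taken by their sample labels: 3 libraries of stage IV and 3 libraries of stage III, all from mice given the isotype antibody, 6 of the 22 libraries in the study. All mice were C57BL/6 wild type and received 400 ng of recombinant IL-33 a day for 7 days, which raises eosinophil output. From the last IL-33 dose on they also received 3 daily injections of 400 µg of antibody, either the isotype control used here or a neutralizing anti-IL5 antibody. Marrow was depleted of Ly6G, CD90.2, NK1.1 and CD45R positive cells. Stages I to IV were then gated on Siglec-F, CD117 (Kit), CD55, F4/80, CD200R3, PIR-A/B and CD29 and sorted at a purity of at least 95%. The labels do not say whether the 3 libraries of a group came from separate animals. P-values therefore measure the spread between libraries of a group, estimated over all 22 libraries, and this spread may be technical.

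Eosinophils arise from committed progenitors that divide, fill their granules with major basic protein, eosinophil peroxidase and ribonucleases, and then leave the cycle. Granule proteins are made early and stored, and the mature cell leaves the marrow under the control of chemokine receptors and integrins. IL-5 acts through Il5ra and the beta common chain to drive this output and to keep the mature cells alive. RNA was made into full-length cDNA with a kit that does not keep strand, so a gene and an overlapping antisense gene cannot be told apart. In sorted bulk samples, fewer cells of a type and less RNA per cell cannot be told apart either.

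Gene counts were 12145872 to 14781250 in stage IV libraries and 8341704 to 12499837 in stage III libraries, and 12466 to 12842 genes had at least 1 count in each of the 6. The eosinophil markers Siglecf, Ccr3, Il5ra, Epx and Prg2 were present in all 6 libraries. On the first principal component of all 22 libraries, which held 62.3% of the variance, stage IV libraries sat at 114, 115 and 117, and stage III replicates 1 and 2 at 20.4 and 27.7. Stage III replicate 3 was the lowest of its group and lay nearest to the earlier stages, and its effect is given below wherever leaving it out changed a count by more than 1.5 times.

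The step changed the eosinophil transcriptome broadly. Of 12387 genes tested, 4165 (33.6%) passed an edgeR adjusted p under 0.05, with 1836 (14.8%) higher and 2329 (18.8%) lower at stage IV. With a fold of at least 2 as well, 792 (6.39%) were higher and 1568 (12.7%) lower, so large falls outnumbered large rises. The libraries of the 2 stages did not overlap for 5796 of the 12387 genes. The largest rises and falls named below were picked among genes without overlap, so for them this was set in advance. Each list below can be read against all genes tested, with a median log2 fold change of 0.00, 14.8% higher and 18.8% lower. Of the 1836 genes that rose, 1669 (90.9%) had their highest mean of the 4 stages at stage IV. Of the 2329 that fell, 941 (40.4%) peaked at stage I, 837 (35.9%) at stage II and 551 (23.7%) at stage III. These genes were picked on stages III and IV, so a rise could not peak at stage III nor a fall at stage IV. The shares are therefore a description only, and the same shares over all genes tested were not computed.

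Several of the largest rises were of genes with few or no counts at stage III. Fgfr1, a receptor for fibroblast growth factors at chromosome 8, 25518759 to 25575718 on GRCm38.p6, had 453, 363 and 389 CPM (counts scaled to the effective library size) at stage IV and 0.255, 1.49 and 2.05 CPM at stage III. The groups were far apart, with a log2 fold change of 8.24 ± 0.62 (SE, n = 3 each, edgeR adjusted p = 1.83e-08). Ccl9, a chemokine of the CC family, had 977, 963 and 1487 CPM at stage IV and 4.96, 7.79 and 17.3 CPM at stage III, without overlap, and its log2 fold change was 6.82. Krt80, an intermediate filament keratin, had 784, 703 and 1003 CPM at stage IV, against 15.5, 25.5 and 23.9 CPM at stage III, a log2 fold change of 5.25. Rhbdl3, a rhomboid-like membrane protein, had 718 counts over the 3 stage IV libraries and none at stage III, which makes it at least 192-fold higher with a floor of 3 counts over the group. Adamdec1, a secreted metalloprotease, had 620 counts at stage IV and none at stage III, at least 166-fold higher. Among the other largest rises, Fgl2 (a secreted fibrinogen-like protein) averaged 387 CPM at stage IV and 10.1 CPM at stage III, Asb2 (a ubiquitin ligase subunit) 339 and 8.47 CPM, and Pbld1 260 and 5.88 CPM. Hbegf, an EGF receptor ligand, was at 28.7, 29.2 and 29.2 CPM at stage IV, and at 0, 1.31 and 0.215 CPM at stage III, a nearly even level in the mature cells.

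**Figure D1:**
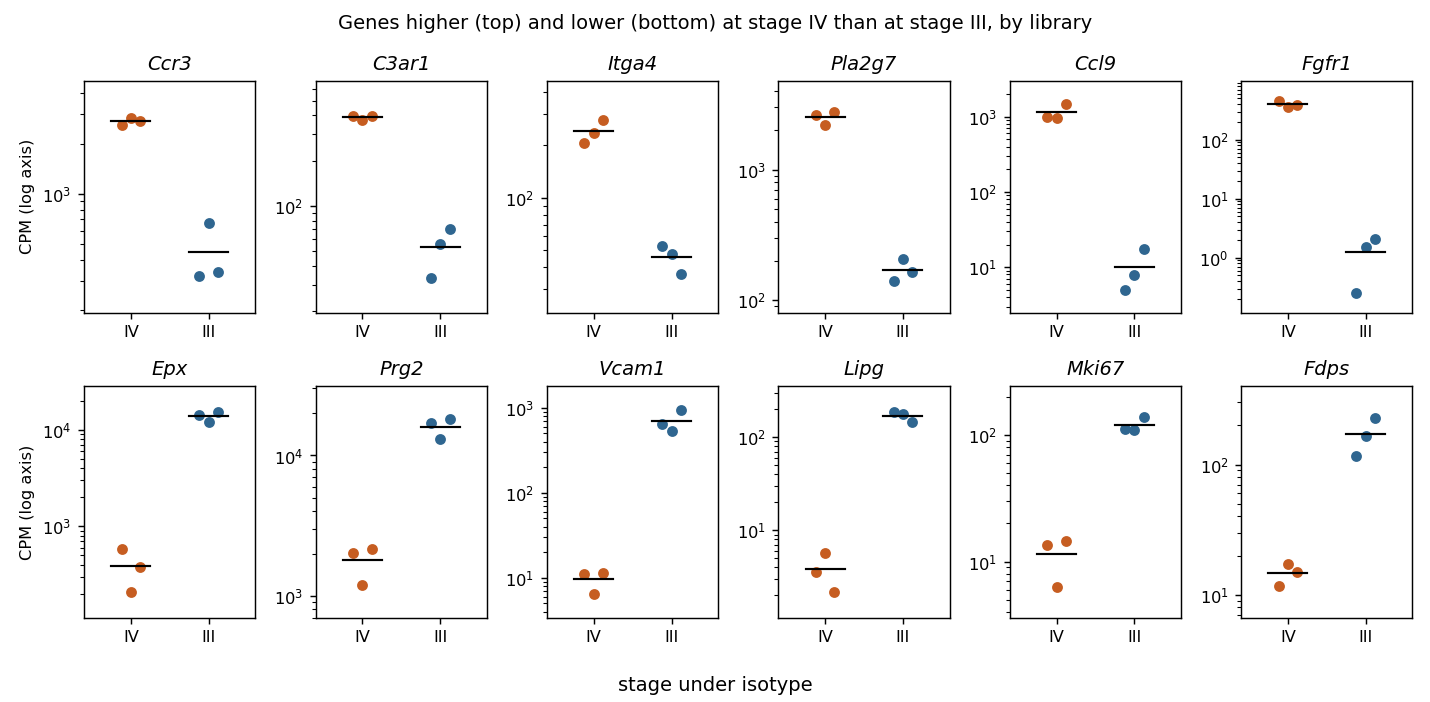
CPM on log axes in each library of stage IV (left, orange) and stage III (right, blue) under isotype, with the group mean as a line; scales differ between panels. The libraries of both groups do not overlap in any panel, as in 5796 of all 12387 genes tested. Ccr3 lies at 2577 to 2841 CPM at stage IV and 322 to 670 CPM at stage III, and Epx at 208 to 583 CPM and 12049 to 15324 CPM.

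The 15 largest falls included Ttk, Nek2, Kif4, Spc24 and Cenpf, which act in mitosis, and Mcpt8, a basophil protease. Ttk, the spindle checkpoint kinase also called Mps1, had no count in any stage IV library and 9.29, 11.3 and 13.5 CPM at stage III, and was at least 136-fold lower. Prss57, a serine protease of myeloid granules, had 2.13, 1.52 and 0.281 CPM at stage IV and 121, 148 and 254 CPM at stage III, with replicate 3 the highest. Vcam1, an adhesion molecule that binds integrin alpha 4, had 11.2, 6.52 and 11.3 CPM at stage IV, against 648, 533 and 934 CPM at stage III. Its groups stood apart, with a log2 fold change of -6.19 ± 0.31 (SE, n = 3 each, edgeR adjusted p = 5.53e-12). Il17rb, the receptor for IL-25, averaged 0.524 CPM at stage IV and 58.5 CPM at stage III. Muc6 had 2 counts at stage IV and 354 at stage III, a ratio of 221-fold lower with a 95% counting interval of 60.7 to 1830. Lipg, endothelial lipase, was at 3.57, 5.76 and 2.15 CPM at stage IV and at 188, 178 and 146 CPM at stage III, with means of 171 CPM at stage III and 178 CPM at stage II.

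The mRNAs of the stored granule proteins fell at this step. All 7 tested of 10 listed granule protein genes were called lower, against 18.8% of all genes tested, with a median log2 fold change of -4.13. Together the 10 listed genes held 0.248% of gene counts at stage IV and 3.58% at stage III. Epx, eosinophil peroxidase, at chromosome 11, 87863997 to 87875536, had 583, 208 and 375 CPM at stage IV and 14246, 12049 and 15324 CPM at stage III. Prg2, the major basic protein precursor, kept more of its level, with 2016, 1198 and 2155 CPM at stage IV and 16981, 13090 and 18120 CPM at stage III. Stage IV replicate 2 was the lowest library for both, and no library of one stage reached the other. The log2 fold changes were -5.16 for Epx, -3.17 for Prg2, -5.06 for Prg3, a second major basic protein, and -2.84 for Ear1, an eosinophil ribonuclease (edgeR adjusted p of 6.25e-07 or less). Ear2 and Ear6 had log2 fold changes of -3.34 and -4.13. Ear1, Ear2 and Ear6 are ribonucleases of the same family, and the counting could split reads between close copies. The proteases and other contents of primary granules behaved otherwise: 1 of 9 rose (11.1%) and 2 fell (22.2%), near the 14.8% and 18.8% of all genes tested. Srgn, the proteoglycan serglycin that packs granule contents, averaged 1345 CPM at stage IV and 666 CPM at stage III. Mpo averaged 48.8 CPM at stage IV and 13.1 CPM at stage III and did not pass the test (edgeR adjusted p = 0.111).

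Genes of DNA replication and division were nearly all lower. Among S phase genes 53 of 58 fell and none rose, or 1 without stage IV replicate 1, with a median log2 fold change of -2.91. Among G2/M genes 64 of 67 fell, with a median of -4.28, and 1, Pttg1, rose. Rrm2, a subunit of ribonucleotide reductase, had 12.9, 5.99 and 6.46 CPM at stage IV, against 238, 207 and 353 CPM at stage III. Mki67, the proliferation marker, had 13.4, 6.29 and 14.5 CPM at stage IV and 111, 109 and 139 CPM at stage III. Mcm3, a helicase subunit, had 9.78, 15 and 22.6 CPM at stage IV and 156, 174 and 196 CPM at stage III. The stage groups were apart for all 3, and Cenpf, a kinetochore protein, fell to a mean of 0.381 CPM at stage IV, against 47.4 CPM at stage III. The summed level of the G2/M list was 1292 to 1499 CPM at stage IV and 5243, 5031 and 7138 CPM at stage III, where replicate 3 was highest. Replication-dependent histone genes had 42 of 49 lower and none higher, with a median log2 fold change of -2.63; these genes come in near-identical copies and many lack a poly(A) tail, so single members are uncertain.

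The counts of S phase, G2/M and histone genes that fell stayed within 1.5 times of the values above when any 1 library was left out. Among regulators of the cycle 8 of 29 rose (27.6%) and 7 fell (24.1%), against 14.8% and 18.8% of all genes tested. Cdkn2b, an inhibitor of Cdk4 and Cdk6, rose to 74.5, 67.4 and 61.9 CPM at stage IV, against 14.4, 16 and 10 CPM at stage III. Cdkn1b, the inhibitor p27, averaged 51.8 CPM at stage IV and 23.4 CPM at stage III, and also rose. Cdkn2c, the inhibitor p18, fell to a mean of 4.71 CPM at stage IV, against 24.1 CPM at stage III. Without stage III replicate 1 or 2 or stage IV replicate 1 or 3, 3 to 5 of the 29 were called higher, and Cdkn1a, the inhibitor p21, averaged 130 CPM at stage IV and 39.8 CPM at stage III but lost its call without stage III replicate 2 or stage IV replicate 3. Myc, which drives growth and division, averaged 9.45 CPM at stage IV and 19 CPM at stage III, and its call was lost in 5 of the 6 fits with a library left out.

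Promoters of these genes were read from RefSeq, build GRCm38.p6, from 250 bases before to 50 after each start, and searched on both strands for CCAAT, for the CHR element TTTGAA and for the E2F element TTGGCGC or TTCCCGC. These 3 are shown because their genes mark replication and division, with matches in capitals.
Mcm3: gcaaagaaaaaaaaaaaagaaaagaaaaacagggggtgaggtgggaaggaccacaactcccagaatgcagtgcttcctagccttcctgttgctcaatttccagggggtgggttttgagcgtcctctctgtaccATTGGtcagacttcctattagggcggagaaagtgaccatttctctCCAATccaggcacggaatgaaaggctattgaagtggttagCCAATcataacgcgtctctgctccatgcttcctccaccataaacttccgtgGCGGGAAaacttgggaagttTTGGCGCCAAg
Cenpf: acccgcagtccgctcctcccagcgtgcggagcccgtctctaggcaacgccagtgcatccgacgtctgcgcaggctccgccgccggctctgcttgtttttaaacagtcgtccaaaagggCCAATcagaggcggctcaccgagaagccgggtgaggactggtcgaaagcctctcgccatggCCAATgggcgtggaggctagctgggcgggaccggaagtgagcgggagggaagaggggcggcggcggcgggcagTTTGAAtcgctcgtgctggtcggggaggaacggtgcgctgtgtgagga
Mki67: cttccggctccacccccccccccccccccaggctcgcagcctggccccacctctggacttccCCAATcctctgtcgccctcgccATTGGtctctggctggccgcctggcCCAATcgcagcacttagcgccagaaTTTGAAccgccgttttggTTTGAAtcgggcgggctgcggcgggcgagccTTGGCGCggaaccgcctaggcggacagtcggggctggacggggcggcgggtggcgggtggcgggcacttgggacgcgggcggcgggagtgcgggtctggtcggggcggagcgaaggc

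The Mcm3 promoter lies at chr1:20820263-20820562 on the minus strand and held 3 E2F and 3 CCAAT matches, with no CHR match. Its last 2 E2F matches overlap as a palindrome. The Cenpf promoter, at chr1:189688037-189688336 on the minus strand, held 2 CCAAT and 1 CHR match. The Mki67 promoter, at chr7:135716330-135716629 on the minus strand, held 3 CCAAT, 2 CHR and 1 E2F match. Of the 64 G2/M genes that fell, 52 had a promoter in the table, and 69.6% of their 56 promoters held the CHR element, against 17.9% of all 32851 promoters and 12.2% of promoters of genes tested. CCAAT was in 78.6% of them, against 37.4% of all promoters. Of the 53 S phase genes that fell, 42 had a promoter, and 47.1% of their 51 promoters held an E2F match, against 6.81% of all promoters and 11.9% of those of genes tested. Nearly all members of both lists fell, so these shares describe the lists and not the step. Of the 1568 genes that fell with a fold of at least 2, 1218 had a promoter. CHR was in 16.2% of their promoters, E2F in 15.4% and CCAAT in 45.6%. For promoters of genes tested the shares were 12.2%, 11.9% and 38.3%. A match is a run of letters and not a shown binding site.

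**Figure D2:**
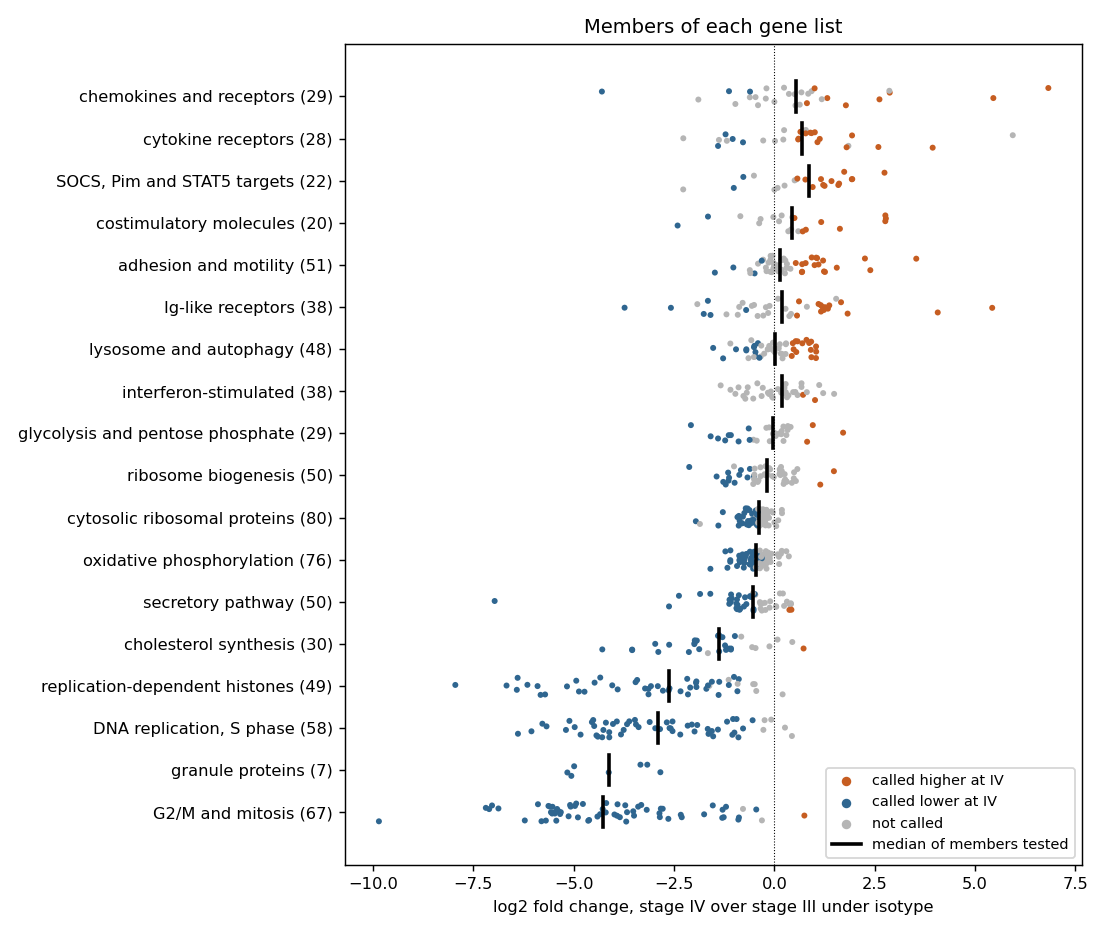
Each point is a tested member of a gene list, placed by its log2 fold change of stage IV over stage III under isotype; orange and blue mark members called higher and lower, and bars the medians. Of the 18 lists shown, SOCS, Pim and STAT5 targets have a median of 0.86, chemokines and receptors 0.53 (0.99 without stage III replicate 3 and 0.17 without stage IV replicate 3) and G2/M -4.28; numbers in brackets are members tested.

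Several receptors for chemoattractants, which guide eosinophils out of marrow and into tissue, rose at the step. In the list of chemokines and chemoattractant receptors 8 of 29 rose and 3 fell. Its median log2 fold change of 0.53 became 0.99 without stage III replicate 3 and 0.17 without stage IV replicate 3. Ccr3, the eotaxin receptor that draws eosinophils to tissue, had 2577, 2841 and 2740 CPM at stage IV, against 322, 670 and 337 CPM at stage III. Its log2 fold change was 2.62 ± 0.37 (SE, n = 3 each, edgeR adjusted p = 1.32e-05). C3ar1 and C5ar1, receptors for the complement peptides C3a and C5a, averaged 390 and 235 CPM at stage IV, against 53.2 and 68.3 CPM at stage III, with no overlap for either. Ptafr, the receptor for platelet-activating factor, averaged 79.7 CPM at stage IV and 31.9 CPM at stage III, and rose. Fpr1, which senses bacterial formyl peptides, fell with a log2 fold change of -4.30.

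In the adhesion and motility list 17 of 51 rose and 4 fell, or 2 without stage III replicate 2 or stage IV replicate 3. Itga4, integrin alpha 4, which pairs with Itgb1 or Itgb7, had 205, 235 and 280 CPM at stage IV and 53, 47.9 and 36.5 CPM at stage III. Itgal, integrin alpha L, had 822, 914 and 890 CPM at stage IV and 279, 435 and 180 CPM at stage III, where replicate 3 was lowest. Selplg, the selectin ligand PSGL-1, averaged 1461 CPM at stage IV and 610 CPM at stage III. Vim, vimentin, was among the 4 that fell, with means of 203 CPM at stage IV and 569 CPM at stage III.

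The genes for the antigens used in the sort moved partly by construction, since the gates chose cells on their proteins. Of 8, 6 rose and 1, Kit, fell, with 2 lower without stage IV replicate 1. Adgre1 (F4/80) averaged 2552 CPM at stage IV and 1000 CPM at stage III, and Itgb1 (CD29) 485 and 227 CPM. Kit (CD117) had 3.57, 1.36 and 1.87 CPM at stage IV and 10.7, 18.9 and 16.1 CPM at stage III. Cd55 had 151, 79.1 and 62.5 CPM at stage IV and 155, 123 and 121 CPM at stage III and did not pass the test (edgeR adjusted p = 0.104), but was called lower with the replicate number as a block (adjusted p = 0.0417), with limma-voom (adjusted p = 0.0388) and without stage IV replicate 1 (adjusted p = 0.000131). The rises of Pira2 and Pirb, near-identical paralogs, were lost under several left-out libraries.

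Cytokine receptors shifted upward at the step. Of 28 tested, 14 rose and 4 fell, with a median log2 fold change of 0.68, and 9 rose without stage III replicate 3. Il4ra, the shared receptor chain for IL-4 and IL-13, had 61.4, 104 and 77.4 CPM at stage IV and 14.8, 15.1 and 10.3 CPM at stage III. Il5ra, the IL-5 receptor chain, had 472, 488 and 356 CPM at stage IV and 239, 343 and 219 CPM at stage III, a smaller change with a log2 fold change of 0.72. Il1rl1, the IL-33 receptor, averaged 182 CPM at stage IV and 83.2 CPM at stage III, and rose. Csf1r, the receptor for CSF-1, averaged 858 CPM at stage IV and 247 CPM at stage III. Csf2rb and Csf2rb2, the beta common chain and its close paralog, were called higher, but Csf2rb overlapped between stages. Csf2rb lost its call without stage III replicate 1 or 3 or stage IV replicate 2, and with only the 11 isotype libraries. Csf2rb2 lost its call without stage III replicate 3 or stage IV replicate 1.

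Feedback inhibitors, Pim kinases and STAT5 targets had 13 of 22 higher and 2 lower, with a median log2 fold change of 0.86, and 1 was lower without any 1 library other than stage III replicate 1. Socs3, a brake on cytokine signalling, had 41.3, 29.5 and 41.3 CPM at stage IV and 5.22, 5.77 and 5.71 CPM at stage III, which is a tight group on each side. Pim1, a survival kinase, had 321, 202 and 322 CPM at stage IV and 118, 88 and 74.3 CPM at stage III. Dusp6, a phosphatase that acts on ERK, averaged 276 CPM at stage IV and 71.8 CPM at stage III. Cish averaged 161 CPM at stage IV and 69.1 CPM at stage III, and its call was lost without stage III replicate 3 or stage IV replicate 2.

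The survival genes did not all go one way. Of 12 antiapoptotic genes 5 rose (41.7%) and 2 fell (16.7%), and of 16 proapoptotic genes 6 rose (37.5%) and 3 fell (18.8%). All genes tested had 14.8% higher and 18.8% lower, so neither share of falls stood above theirs. Bcl2, the founding survival gene of its family, had 8.93, 11.7 and 5.15 CPM at stage IV and 34.5, 35.3 and 35.2 CPM at stage III, and fell with a log2 fold change of -2.02. Mcl1 averaged 1125 CPM at stage IV and 677 CPM at stage III, and rose, as did Bcl2a1a, with means of 108 and 15.4 CPM; the Bcl2a1 genes are near-identical copies whose reads may be split. Bcl2l11, the death activator Bim, had 17.5, 11.1 and 17.4 CPM at stage IV and 2.16, 3.85 and 1.19 CPM at stage III. Bbc3, the activator Puma, averaged 69.8 CPM at stage IV and 30.4 CPM at stage III. Counts of proapoptotic genes called lower were 0 or 1 in each fit without 1 library.

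Of 37 lineage and myeloid transcription factors tested, 11 were higher (29.7%) and 6 lower (16.2%), against 14.8% and 18.8% of all genes tested. Myb, which keeps progenitors dividing, had 9.44, 19 and 7.87 CPM at stage IV and 226, 156 and 232 CPM at stage III. Gfi1, a repressor in granulocyte progenitors, had 6.21, 4.02 and 3.65 CPM at stage IV and 59.3, 51.7 and 49.7 CPM at stage III. Gata2 and Cebpe also fell, with means of 126 and 445 CPM at stage IV and 377 and 755 CPM at stage III. Meis1, a homeobox factor known from stem cells, rose to a mean of 54.6 CPM at stage IV, against 5.09 CPM at stage III. Gata1, needed for the eosinophil lineage, averaged 452 CPM at stage IV and 331 CPM at stage III, and lost its call without stage III replicate 1 or 3 or stage IV replicate 2 or 3. Spi1, the factor PU.1, averaged 1133 CPM at stage IV and 963 CPM at stage III and did not pass the test.

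Immediate early genes were uneven, with 5 of 21 higher (23.8%) and 3 lower (14.3%), against 14.8% and 18.8% of all genes tested. The counts were 3 higher without stage III replicate 1 or stage IV replicate 3, and 1 lower without stage III replicate 3. Junb averaged 5005 CPM at stage IV and 1437 CPM at stage III, and Jun 871 CPM at stage IV and 2448 CPM at stage III, so these partners of AP-1 went opposite ways. NF-kB factors and inhibitors had 6 of 18 higher and 2 lower, or 1 lower without stage III replicate 1 or stage IV replicate 2 or 3. Nuclear envelope and chromatin genes had 12 of 30 lower and 3 higher, or 1 higher without stage III replicate 1 or 3 or stage IV replicate 2, and Lmnb1, lamin B1, averaged 15.7 CPM at stage IV and 67.5 CPM at stage III.

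Of 20 costimulatory and antigen presentation genes 8 rose and 2 fell, and 0 or 1 fell without stage III replicate 3 or any 1 stage IV replicate. Cd86 and Cd80, ligands of CD28, averaged 40.8 and 19.9 CPM at stage IV, against 5.87 and 2.90 CPM at stage III. Cd274, the checkpoint ligand PD-L1, had 28.9, 38.3 and 47.1 CPM at stage IV and 6.36, 6.04 and 4.42 CPM at stage III, without overlap. Among Ig-like receptors 14 of 38 rose and 6 fell. Cd300ld, an activating receptor of the CD300 family, rose, at 272, 375 and 355 CPM at stage IV and 19.9, 22.4 and 17.3 CPM at stage III. Among innate sensors 6 of 27 rose and 6 fell, 22.2% each against 14.8% and 18.8% of all genes tested. Falls were 2 or 3 without stage III replicate 3 or stage IV replicate 1 or 2. Tlr4, which senses endotoxin, averaged 37.1 CPM at stage IV and 4.52 CPM at stage III, and Tlr2 fell with a log2 fold change of -2.45. Secreted effectors had 10 of 34 higher and 7 lower. Retnla, a resistin-like protein, had 267, 321 and 282 CPM at stage IV and 0.509, 13 and 15.1 CPM at stage III, with stage III replicate 1 far below the others. Mmp9, a gelatinase, averaged 1379 CPM at stage IV and 207 CPM at stage III.

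Lipid mediator genes had 6 of 20 higher and 3 lower. Pla2g7, which breaks down platelet-activating factor, had 2640, 2198 and 2744 CPM at stage IV and 140, 206 and 166 CPM at stage III, a log2 fold change of 3.89. Alox15, the 15-lipoxygenase, had 3522, 5979 and 4000 CPM at stage IV and 8404, 9037 and 6162 CPM at stage III, and its fall was lost without stage IV replicate 1. Lta4h, which makes leukotriene B4, averaged 884 CPM at stage IV and 1961 CPM at stage III, and fell.

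Many genes of cholesterol synthesis and of the secretory pathway were lower at stage IV. In cholesterol and fatty acid synthesis 22 of 30 fell and 1 rose, or 2 without stage III replicate 2, with a median log2 fold change of -1.38. Fdps, which makes farnesyl diphosphate, had 11.6, 17.3 and 14.9 CPM at stage IV and 115, 167 and 229 CPM at stage III. In the secretory pathway 27 of 50 fell and 3 rose, or 0 or 1 rose without stage III replicate 1 or stage IV replicate 1 or 2, with a median of -0.53. Calr, the ER chaperone calreticulin, had 148, 123 and 118 CPM at stage IV and 389, 420 and 592 CPM at stage III. Ribosome biogenesis had 13 of 50 lower and 2 higher, with a median of -0.19. Without stage IV replicate 3, 8 of the 50 were lower, and the list is not read as a fall against the 18.8% of all genes tested that were lower.

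Cytosolic ribosomal proteins had 35 of 80 lower and none higher, but with a median log2 fold change of only -0.39, and 14 were lower without stage III replicate 3 and 18 without stage IV replicate 2. Nuclear-encoded subunits of oxidative phosphorylation had 40 of 76 lower, with a median of -0.45, and 24 without stage III replicate 3. Proteasome subunits had 15 of 37 lower, with 6 without stage III replicate 3 and 9 without stage IV replicate 1 or 2. Serine and one-carbon enzymes had 11 of 24 lower and 1 higher, which was lost without stage III replicate 2 or 3 or stage IV replicate 1; the falls included Psat1, at means of 3.42 CPM at stage IV and 30.5 CPM at stage III. Glycolysis had 3 of 29 higher (10.3%) and 9 lower (31%), against 14.8% and 18.8% of all genes tested. Slc2a1, the glucose transporter GLUT1, was up at 180 CPM at stage IV, against 54.8 CPM at stage III. Of lysosome and autophagy genes 15 of 48 rose (31.2%) and 11 fell (22.9%), with 8 higher without stage III replicate 3. Interferon-stimulated genes had 2 of 38 higher and none lower, but 7 were higher without stage III replicate 3 and with the replicate block, and 1 without stage III replicate 1 or stage IV replicate 2. With the block or without stage IV replicate 3, 2 were lower, and 1 without stage III replicate 2, so no direction is given. Their summed level was 1631, 1889 and 3913 CPM at stage IV and 1283, 1689 and 3453 CPM at stage III, highest in replicate 3 of both stages.

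**Figure D3:**
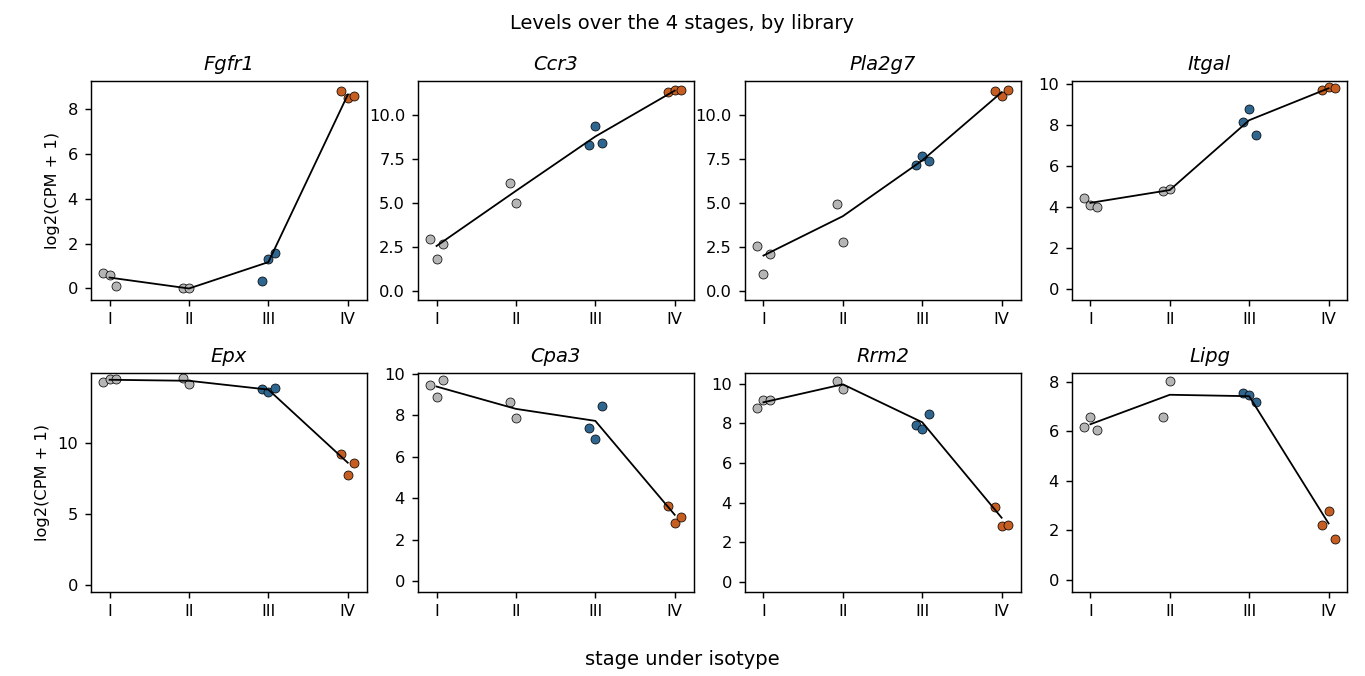
log2(CPM + 1) in each isotype library of stages I to IV, in maturation order, with a line through the logged means; stage II has 2 libraries and the others 3. Fgfr1 is near 0 until stage III and reaches a mean of 401 CPM at stage IV, while Lipg averages 171 CPM at stage III and 3.83 CPM at stage IV.

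Levels over the whole course placed the step. Fgfr1 averaged 0.402, 0, 1.26 and 401 CPM at stages I to IV, so it was near 0 in the libraries of the first 3 stages. Ccr3 averaged 4.89, 50.9, 443 and 2719 CPM and Csf1r 6.23, 50.8, 247 and 858 CPM, both higher at each stage. Epx averaged 22436, 21348, 13873 and 389 CPM, with most of the drop at this step, and Rrm2 averaged 536, 1007, 266 and 8.46 CPM.

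Markers of other marrow cells were present to different degrees. The 13 erythroid genes listed summed to 14.2 to 29.4 CPM at stage IV and 7.00 to 38.4 CPM at stage III. Of these, 9 were tested and none was called, or 1 lower without stage III replicate 2. In the basophil and mast cell list 8 of 12 fell and 2 rose, and its sum was 615, 585 and 636 CPM at stage IV and 2303, 1958 and 2762 CPM at stage III. In the neutrophil list 9 of 18 fell and 2 rose, or 1 without stage III replicate 1 or 3 or stage IV replicate 3, with sums of 7298 to 8222 CPM at stage IV and 10442 to 14264 CPM at stage III. Ngp, a secondary granule protein, had 154, 178 and 193 CPM at stage IV and 4744, 6616 and 4217 CPM at stage III, whereas Camp, another protein of those granules, averaged 31.2 CPM at stage IV and 50.8 CPM at stage III and did not pass the test. Of the other lists, the progenitor list had 5 of 13 lower and 1 higher, the monocyte list 3 of 16 lower and 1 higher, the megakaryocyte list 3 of 5 lower, the B lineage list 1 of 5 lower and the dendritic list 1 of 8 higher. Over all genes tested 14.8% were higher and 18.8% lower, and the monocyte list, also at 18.8% lower, did not stand above that. Progenitor genes summed to 195 to 222 CPM at stage IV and 481 to 812 CPM at stage III, and monocyte genes to 1083 to 2107 CPM at stage IV and 2382 to 4005 CPM at stage III. Megakaryocyte genes summed to 146 to 165 CPM at stage IV and 691 to 877 CPM at stage III, and B lineage genes to 9.44 to 15.2 CPM at stage IV and 47.0 to 55.6 CPM at stage III. Dendritic cell genes overlapped, with 52.8 to 106 CPM at stage IV and 49.8 to 146 CPM at stage III. The T, NK and innate lymphoid list summed to 7.06, 4.32 and 5.90 CPM at stage IV and 94.1, 104 and 234 CPM at stage III, and 2 of its 3 genes tested fell. These were Nkg7, a cytotoxic granule protein, with means of 2.64 CPM at stage IV and 133 CPM at stage III, and Cd3d, a T cell receptor subunit, with 2.53 CPM at stage IV and 10.8 CPM at stage III. Cd3e, another subunit, had no count in the 6 libraries. Summed levels of the basophil and mast cell, neutrophil, progenitor, monocyte, megakaryocyte, B lineage and lymphoid lists fell, as did granule and cell cycle genes. Erythroid and dendritic sums overlapped between stages. The part of these markers in the granule and cell cycle results was not tested.

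The same step under anti-IL5, on 6 other libraries, called 2951 genes (23.8%), with 1292 (10.4%) higher and 1659 (13.4%) lower. Of the isotype calls, 908 of 1836 rises (49.5%) and 1322 of 2329 falls (56.8%) were called the same way there, which is 70.3% and 79.7% of the anti-IL5 calls, and 8 genes were called in opposite directions. A call in only one treatment does not show a difference. The difference of the steps itself was called for 79 genes (0.638%), 12 (0.0969%) with a higher and 67 (0.541%) with a lower log2 fold change under isotype, and 1265 genes had an unadjusted p under 0.05. The split depended on the tool: DESeq2 called 260 (21.5% higher), limma-voom 27 (51.9% higher) and the edgeR fit on only the 12 libraries compared 17 (52.9% higher).

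**Figure D4:**
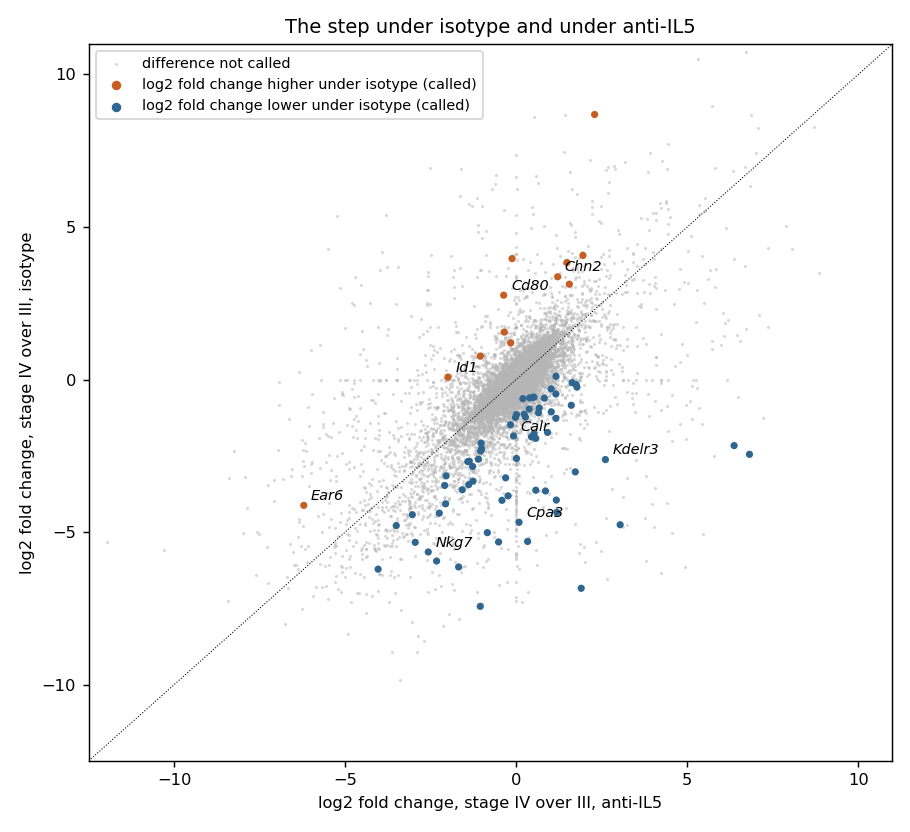
log2 fold change of stage IV over stage III under isotype (vertical) against that under anti-IL5 (horizontal) for 12387 genes; the dotted line marks equal values, and orange and blue mark the 79 genes whose difference was called. Cpa3 lies at -4.68 under isotype and 0.08 under anti-IL5.

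Cpa3, the mast cell carboxypeptidase, differed between the treatments. It had 11.2, 5.99 and 7.59 CPM at stage IV and 168, 114 and 354 CPM at stage III under isotype, and 15.6, 12 and 9.62 CPM at stage IV and 11.7, 14 and 9.35 CPM at stage III under anti-IL5. Stage III under isotype alone was high, and the difference of log2 fold changes was -4.76 ± 0.54 (SE, n = 3 each, edgeR adjusted p = 0.000272). Calr differed in the same pattern, with 101, 118 and 115 CPM at stage IV and 111, 136 and 107 CPM at stage III under anti-IL5, a difference of -1.77 that was lost without anti-IL5 stage III replicate 3 or isotype stage IV replicate 2. Chn2, a GTPase activating protein for Rac, rose under both, but more under isotype: 52.8, 67.1 and 66.2 CPM at stage IV and 5.98, 7.52 and 4.42 CPM at stage III under isotype, and 27.3, 38.1 and 39.6 CPM and 14, 15.3 and 16.1 CPM under anti-IL5. Its difference was 2.16 ± 0.31 (SE, n = 3 each, edgeR adjusted p = 0.0032). Id1, an inhibitor of helix-loop-helix factors, averaged 128 CPM at stage IV and 121 CPM at stage III under isotype and had 68, 41.4 and 31.3 CPM at stage IV and 252, 176 and 131 CPM at stage III under anti-IL5, and was called lower under anti-IL5 alone; the test of its difference gave 2.08 (edgeR adjusted p = 0.0142). Of 21 such named differences, 6 kept their call under all 18 alternatives: Cpa3, Tmem215, Chn2, Cd300ld, Klra2 and Vmn2r26.

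By number of genes the S phase list had the most differences called of the 41 lists, 7 of 58. Each was below 0, among them those of the helicase subunits Mcm3, Mcm6 and Mcm7. Over all genes tested the difference was called for 0.638%, with 0.541% below 0. The S phase list had 53 lower and none higher under isotype and 42 lower and 1 higher under anti-IL5. Its summed level had a median of 3546 CPM at stage III and 1437 CPM at stage IV under isotype. Under anti-IL5 the medians were 2330 CPM at stage III and 1516 CPM at stage IV. The difference for Mcm3, -1.38, lost its call with limma-voom and with only the 12 libraries compared. That call was also lost without replicate 2 or 3 of anti-IL5 stage III or stage IV. The same held without any 1 isotype stage III replicate, and without isotype stage IV replicate 1 or 2. By share, shorter lists stood higher: the serine and one-carbon list had 3 differences called of 24 and the basophil and mast cell list 2 of 12. The secretory list had 27 lower and 3 higher under isotype and 5 lower and 5 higher under anti-IL5, and the difference was called for 4 of its 50 genes. Ribosome biogenesis had 13 lower and 2 higher under isotype and 6 lower and 16 higher under anti-IL5, with 4 differences called. The granule list had 7 of 7 lower under both, and for Ear6 the difference of log2 fold changes was 2.09. Its call was lost with limma-voom, with only the 12 libraries compared, and without anti-IL5 stage IV replicate 2 or 3 or isotype stage IV replicate 1.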

How the data were processed

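The deposited files hold raw counts per gene symbol, made by the authors for each library; per the submitters' processing notes the tools named are STAR 2.6.1a, DESeq2 (no version) and the mm10 genome. How reads were assigned to genes, and on which gene models, is not given in the sources used here. Per the labels' protocols, cDNA came from a SMART-Seq v4 kit with 17 cycles and is not stranded. The lines for reads outside genes (12.7 to 18.1% in the 6 libraries) and ambiguous reads (1.86 to 2.20%) were left out of library sizes and tests.

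One edgeR 4.0.16 quasi-likelihood model (R 4.3.3) was fitted to all 22 libraries in 8 groups of stage and treatment, with TMM scaling and filterByExpr, which left 12387 of 24982 genes; 16619 had a count. P-values were adjusted by Benjamini-Hochberg and called under 0.05. Each SE is the absolute log2 fold change divided by the square root of the F statistic of this model. It thus draws on the spread of all 22 libraries, and n gives the group size only. CPM values use effective library sizes. Alternatives were DESeq2 1.42.0, limma-voom (limma 3.58.1), DESeq2 size factors, no filter, fewer libraries, a replicate block and each library left out. The same-number correlations of stage IV and III deviations were 0.124, 0.160 and 0.208 under isotype, all over 0.1. Those of different numbers were 0.0109 or lower. Under anti-IL5 the same-number values were 0.0954, 0.0969 and 0.114. The numbers may thus pair the isotype libraries, from the data and not the labels, but the values are small. The main p-values come from the fit without a block. Genes named are the 15 largest rises and 15 largest falls with a mean of at least 10 CPM and no overlap, up to 5 called members per list, a fixed set, and up to 8 differences per direction; list counts, Pttg1, Fpr1, Tlr2, Mpo, Camp, Cd3e, Mcm6 and Mcm7 were added after their values were seen. The groups and the 41 lists were chosen with earlier results of these data known. Folds against a group at 0 use a floor of 3 counts. Counting intervals (95%) cover counting error only.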

Additional observations from a re-analysis of the deposited data

Results flagged for a closer look

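The step from stage III to stage IV differed between isotype and anti-IL5 for 21 genes that the text names or lists, by the test of the difference itself in edgeR; each value below is the log2 fold change under isotype minus that under anti-IL5. It was below 0 for Kdelr3 (-5.23), a receptor that returns proteins to the ER, for Cpa3 (-4.76), Hs3st1 (-4.75), Tmem215 (-3.57), Ercc6l (-3.54), Nkg7 (-3.08), Dio2 (-2.91) and Apex1 (-2.50). It was also below 0 for Spc24 (-2.18), a kinetochore subunit, Calr (-1.77), Mcm3 (-1.38), Rrs1 (-1.38) and Hdc (-1.11), which makes histamine. It was above 0 for Vmn2r26 (4.09), Cd80 (3.13), Klra2 (2.35), Chn2 (2.16), Cd300ld (2.12), Ear6 (2.09), Id1 (2.08) and Pilra (1.90). Of the 21, 11 lost their call with limma-voom, 12 with only the 12 libraries compared, and Pilra (edgeR adjusted p = 0.0635) and Rrs1 (edgeR adjusted p = 0.0506) with the replicate block. Leaving out 1 library lost the calls of Calr, Cd80, Ear6, Ercc6l, Hdc, Kdelr3, Mcm3, Nkg7, Pilra and Rrs1. Rrs1 kept its call under 6 of the 18 alternatives. Cd80 lost its call without any 1 isotype stage IV replicate or isotype stage III replicate 1. Its call was also lost without replicate 2 or 3 of anti-IL5 stage III or stage IV. The Kdelr3 difference ranged from -8.99 to -4.70 over the alternatives. Its call was lost without anti-IL5 stage III replicate 2 or stage IV replicate 3, and with only the 12 libraries compared.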

How the results depend on the processing

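No called log2 fold change of a named gene changed sign. Medians of some lists did, among them these: the interferon-stimulated median of 0.18 was -0.70 without stage IV replicate 3, the immediate early median of -0.11 was 0.22 without stage III replicate 1, the effector median of 0.29 was -0.07 without stage III replicate 2, and the monocyte median of -0.63 was 0.05 without stage III replicate 3. The difference calls were mostly lower under isotype (67 of 79), but 13 of 27 with limma-voom and 8 of 17 with only the 12 libraries compared. For the isotype step the count of 4165 stayed within 1.5 times under every alternative: DESeq2 4492, limma-voom 4355, DESeq2 size factors 4168, replicate block 4459, no filter 3822, the 11 isotype libraries 3767 and the 6 libraries compared 3841. Leaving out 1 library gave 3228 (without stage III replicate 3) to 3859. With a fold of at least 2, the count of 2360 ranged from 2038 to 2423 without 1 library and was 2369 with the replicate block. The anti-IL5 count of 2951 ranged from 2104 to 2479 without 1 library and was 3171 with the block. The difference count of 79 was 117 with the replicate block, 260 with DESeq2, 27 with limma-voom and 17 with only the 12 libraries compared; it was 38 (without isotype stage IV replicate 2) to 85 without 1 library, and 46, 49 and 50 without anti-IL5 stage III replicate 3, anti-IL5 stage IV replicate 2 and isotype stage III replicate 3. The cause was not tested. The block moved no other count by over 1.5 times except in interferon-stimulated, sort marker, cholesterol, proteasome and monocyte lists, each by 5 genes or fewer; it also called Cdkn2d and Bcl2l1. Of 226 named genes, 216 were called, 186 of them under all 13 alternatives. With 3 libraries a group, genes near the floor of 3 counts carry wide intervals.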
